A study of Mus musculus with 7 samples.

Results

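The transcripts of 52 cell cycle genes, 30 that act in mitosis and 22 that act in S phase, were followed through single cells of mouse epidermis. The genes were taken by symbol, without use of their values, from the 31907 genes listed in any of the 3 deposited expression tables. The keratinocyte and host tables list all 52, and the donor table lists 51, since Gins2 is not listed there. The question was how these genes differ between the clusters taken here as cycling and the other clusters, and between the libraries labelled with and without T cells. Host mice were male CD45.2 C57BL/6 animals given lethal irradiation, their bone marrow came from female CD45.1 C57BL/6 donors, and epidermis was sampled 3 weeks after this transplantation (BMT). Myeloid cells of the donor, sorted as CD11b+MHCII+, came as 3 libraries labelled BMT and 1 labelled BMT plus T cells (BMT + T cells), CD45neg keratinocytes of the male host as 1 library under each label, and host CD11b+MHCII+ cells as 1 library labelled BMT. The labels name T cells for 1 donor and 1 keratinocyte library, whereas the design text of the series has CD4 and CD8 Matahari T cells, which recognise a male antigen, given to the mice without naming libraries. Comparisons are therefore between labels. Cells of several mice were pooled before sorting, and nothing in the labels says that the libraries came from separate animals, so a p-value measures only the spread between libraries, which may be technical.

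A dividing cell copies its DNA in S phase and separates the copies in mitosis, and the genes needed for each step are transcribed in waves. E2F factors drive the genes of the G1/S transition, and the DREAM and B-MYB complexes, which bind the CHR element, together with NF-Y, which binds the CCAAT box, act on genes of G2 and mitosis. In skin, basal and hair follicle keratinocytes divide to renew the epidermis, and Langerhans cells, the macrophages of the epidermis, renew themselves by division in place. Monocyte-derived Langerhans cells (mLC) replace the resident ones after transplantation.

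Promoters were read from RefSeq for 44 of the 52 members (build GRCm38.p6), as the 250 bases before the gene start. No entry was found for Ccna2, Aurkb, Tpx2, Kif20a, Smc4, Ccne2, Mcm4 and Gins2. Shown first are 2 mitotic members that were higher in KC_Four than in KC_Five, the 2 keratinocyte clusters rich in mitotic transcripts: Top2a (chr11:99024190-99024439, minus strand) and Cdk1 (chr10:69352913-69353162, minus strand). Capitals mark the CHR element (TTTGAA), the CCAAT box (CCAAT) and 3 E2F motifs (TTTGGCG as the first, TTTCGCG as the second and TTTCCCG as the last) on either strand.
Top2a: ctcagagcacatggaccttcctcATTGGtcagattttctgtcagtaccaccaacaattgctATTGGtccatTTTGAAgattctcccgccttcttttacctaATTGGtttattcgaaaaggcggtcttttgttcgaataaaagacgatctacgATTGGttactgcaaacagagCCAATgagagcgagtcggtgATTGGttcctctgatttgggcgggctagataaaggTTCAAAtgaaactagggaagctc
Cdk1: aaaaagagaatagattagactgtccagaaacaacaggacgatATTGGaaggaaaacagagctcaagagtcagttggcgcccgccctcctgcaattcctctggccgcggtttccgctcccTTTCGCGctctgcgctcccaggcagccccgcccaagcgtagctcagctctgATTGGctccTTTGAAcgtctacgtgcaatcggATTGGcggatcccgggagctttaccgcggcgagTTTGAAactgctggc
Next are 2 mitotic members that were higher in KC_Five than in KC_Four, Cdc20 (chr4:118437344-118437593, minus strand) and Ccnb2 (chr9:70421555-70421804, minus strand).
Cdc20: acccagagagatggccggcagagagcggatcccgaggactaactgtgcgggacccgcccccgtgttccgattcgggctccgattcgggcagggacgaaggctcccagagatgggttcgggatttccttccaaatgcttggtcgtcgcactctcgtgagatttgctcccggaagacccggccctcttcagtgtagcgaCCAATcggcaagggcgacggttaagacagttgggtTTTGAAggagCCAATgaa
Ccnb2: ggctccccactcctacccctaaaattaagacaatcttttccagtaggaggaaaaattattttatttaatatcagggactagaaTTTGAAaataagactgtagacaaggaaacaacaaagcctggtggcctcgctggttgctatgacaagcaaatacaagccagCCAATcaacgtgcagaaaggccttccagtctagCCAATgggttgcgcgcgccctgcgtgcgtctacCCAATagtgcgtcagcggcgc
Last are 2 members of S phase, Rrm2 (chr12:24708004-24708253, plus strand) and Mcm6 (chr1:128359706-128359955, minus strand).
Rrm2: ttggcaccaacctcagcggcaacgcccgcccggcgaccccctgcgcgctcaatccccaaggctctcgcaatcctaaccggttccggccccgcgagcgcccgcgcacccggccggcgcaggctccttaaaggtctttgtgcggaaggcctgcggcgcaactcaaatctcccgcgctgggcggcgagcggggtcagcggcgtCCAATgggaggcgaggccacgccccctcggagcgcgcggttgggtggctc
Mcm6: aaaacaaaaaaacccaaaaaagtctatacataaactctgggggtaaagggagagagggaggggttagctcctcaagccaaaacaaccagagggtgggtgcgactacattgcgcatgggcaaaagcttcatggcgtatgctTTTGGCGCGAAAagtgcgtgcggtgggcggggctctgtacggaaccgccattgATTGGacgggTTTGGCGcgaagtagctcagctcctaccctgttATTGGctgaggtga
All mitotic members shown hold the CHR element and the CCAAT box, and Cdk1 also holds 1 E2F motif. They do not stand for their groups. Nusap1 and Ndc80, also higher in KC_Four, and Cenpa and Cenpe, higher in KC_Five, hold no CHR element. The groups as a whole were not compared. Mcm6 holds 3 E2F motifs, 2 of them overlapping, and Rrm2 holds 1 CCAAT box and no match of the other letters searched. Over all matched members, 8 of 25 mitotic promoters (32%) and 3 of 19 S phase promoters (15.8%) held the CHR element, against 18.3% of 27025 genes. The CCAAT box was in 76% of the mitotic and 68.4% of the S phase promoters, against 37.5% of all genes. An E2F motif was in 3 of 25 mitotic promoters (12%) and in 9 of 19 S phase promoters (47.4%), against 5.27% of all genes. No match of the CHR element, the CCAAT box or an E2F motif overlapped a match of another of these kinds in the members' windows. The windows of the members were also richer in G and C, at 59.0% for mitotic and 58.8% for S phase members against 53.2% for all promoters, and its part in these shares was not tested. A match of letters is a description of the sequence and not a binding site.

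The donor table held 11899 cells in 9 annotated clusters, the keratinocyte table had 5426 cells in 5 clusters and the host table had 781 cells in 7 clusters. Libraries held 226 to 8382 cells with 2982296 to 64343817 UMIs (unique molecular identifiers), at a median of 4376 to 13387 UMIs per cell, and any 2 libraries shared at most 7 cell barcodes. BMT replicate 3 was the smallest library and held 6 cells of the cycling mLC cluster (Cyc_mLC), so its values there are given but enter no mean. Values below are UMIs per 10000 UMIs of the cell (CP10K), averaged over the cells of a cluster. Differences are on the log2(CP10K + 0.1) scale, which understates the change of low genes. Intervals and limits cover counting error only.

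Cyc_mLC held 48, 287 and 6 cells of BMT replicates 1 to 3 and 34 cells of the BMT + T cells library, which is 1.87, 3.42 and 2.65% of the BMT libraries and 4.73% of the BMT + T cells library. The 6 Langerhans cell markers (Cd207, Epcam, Mfge8, Cldn1, H2-M5 and Ptgs1) summed to 29.9, 62.6 and 63.8 CP10K in Cyc_mLC of BMT replicates 1 and 2 and of the BMT + T cells library. In resident mLC (Res_mLC) of these libraries the sums were 74.2, 100 and 92.3 CP10K, so the marker level was lower in Cyc_mLC. Against migratory mLC of BMT replicate 1 the markers were mixed. Cyc_mLC was lower there for Cd207 (0.19 against 0.47 CP10K), Mfge8 (10.6 against 32.9) and Cldn1 (2.49 against 3.21). It was higher for Epcam (14.9 against 7.94), H2-M5 (0.41 against 0.03) and Ptgs1 (1.33 against 0.07). The 4 monocyte markers summed to 4.82 to 7.97 CP10K in Cyc_mLC and 1.70 to 1.98 CP10K in Res_mLC of the same libraries, and the 3 keratinocyte markers listed to 0.13 to 1.46 and 0.56 to 1.01. Cycling cells were also deeper, with medians of 21166.5, 12909 and 22490.5 UMIs against 10082, 7343 and 12852.5 in Res_mLC. The part of depth and of these other markers in the differences below was not tested.

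All 30 mitotic members and 18 of 21 S phase members listed were more than 2-fold higher in Cyc_mLC than in the mean of the other donor clusters (a log2 difference above 1), beside 6.23% of the 7267 genes over the level filter. The median difference was 2.91 for the mitotic members, 2.15 for the S phase members and 0.05 for those 7267 genes. Because the clusters were drawn from these same transcripts, the counts describe the annotation and have no test. The members under the fold were Slbp, which binds histone mRNA (0.97), Ung, which removes uracil from DNA (0.41), and Fen1, a flap endonuclease of the lagging strand (0.72).

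**Figure D1:**
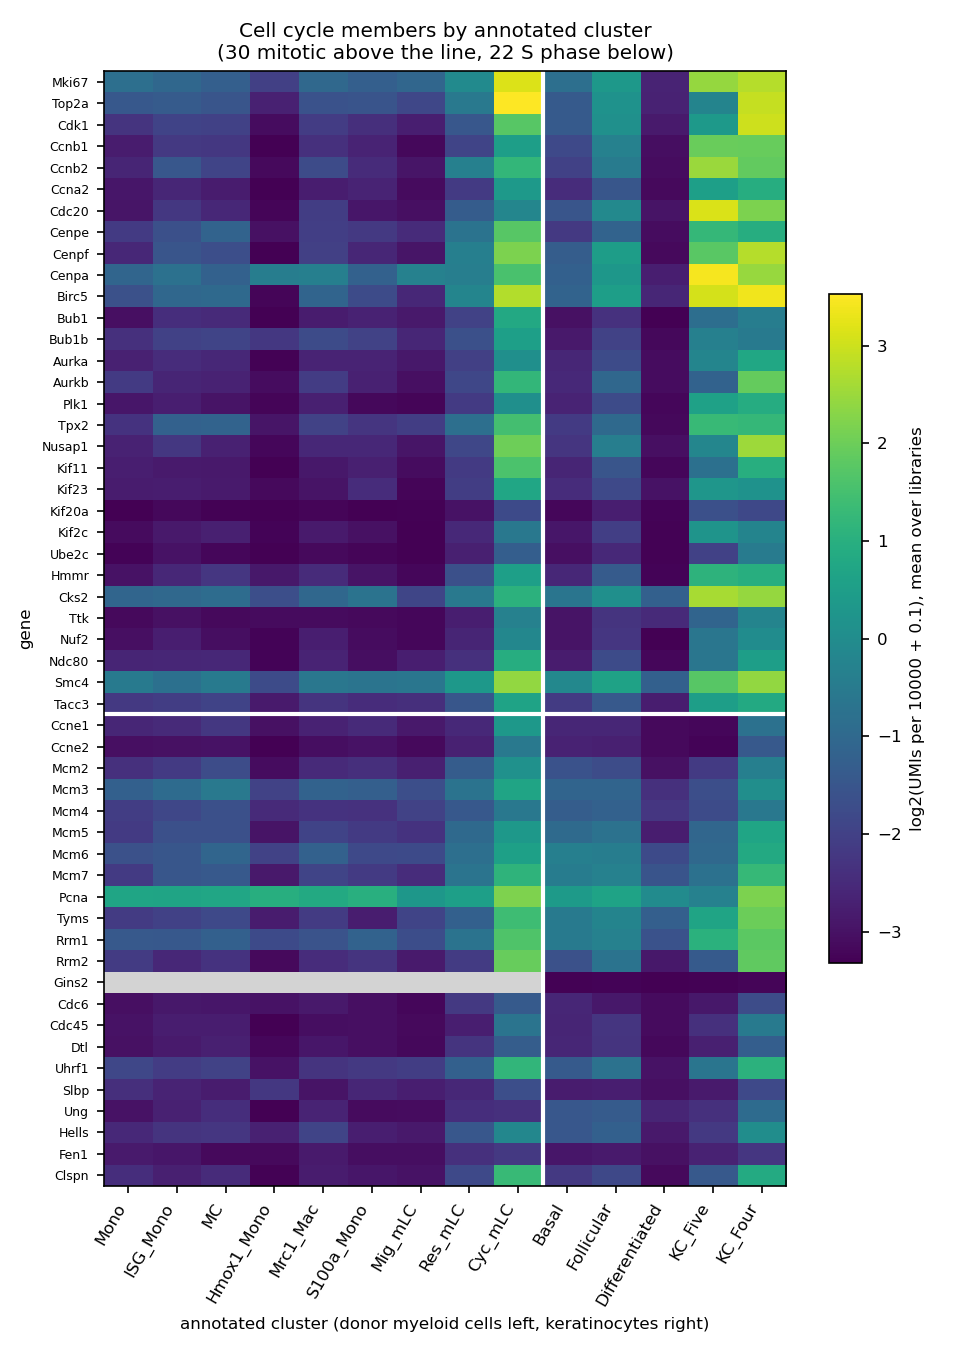
Mean level of each member (rows, 30 mitotic above the white line and 22 S phase below it) in each annotated cluster (columns, donor clusters left of the white line and keratinocyte clusters right), as log2(UMIs per 10000 + 0.1) averaged over libraries with at least 20 cells of the cluster, with grey for Gins2 in donor cells. Cyc_mLC and KC_Four are bright over both blocks, whereas KC_Five is bright in the mitotic block and not in most of the S phase block.

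Top2a, the topoisomerase that untangles chromosomes, was at 11.29 and 11.19 CP10K in Cyc_mLC of BMT replicates 1 and 2, 11.75 in the BMT + T cells library and 6.46 in the 6 cells of BMT replicate 3. In Res_mLC it was at 0.75, 0.80 and 0.28 CP10K in BMT replicates 1 to 3 and 0.49 in the BMT + T cells library. The ranges were far apart, and Top2a had the largest difference of Cyc_mLC against the other clusters (4.86 ± 0.27, SD, n = 3 libraries). Mki67, which coats mitotic chromosomes and is the usual marker of proliferation, was at 9.76, 7.01 and 10.01 CP10K in the 3 larger sets of Cyc_mLC cells and 4.96 in BMT replicate 3. Its levels in Res_mLC were 1.27, 0.92, 0.43 and 0.86 CP10K in BMT replicates 1 to 3 and the BMT + T cells library, and its difference against the other clusters was 4.0 ± 0.22 (n = 3). Smc4, a condensin subunit that compacts chromosomes, differed by 2.89 ± 0.35.

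Of the kinase that starts mitosis and its partners, Cdk1 was at 3.60, 2.62, 6.44 and 3.55 CP10K in Cyc_mLC of BMT replicates 1 to 3 and the BMT + T cells library, and at 0.39, 0.26, 0.16 and 0.25 CP10K in Res_mLC. Ccnb2, a B-type cyclin that activates CDK1, was at 1.85, 2.25, 3.75 and 2.54 CP10K in Cyc_mLC and at 0.97, 0.52, 0.48 and 0.79 CP10K in Res_mLC. The groups did not overlap for either gene. Against all other clusters the 6 members of this role (Cdk1, Ccnb1, Ccnb2, Ccna2, Plk1 and Cks2) differed by 2.16 to 3.83.

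Cdc20, which activates the anaphase-promoting complex, stood out among the study's markers by its small difference between Cyc_mLC and Res_mLC. It was at 0.62, 0.75 and 0.97 CP10K in Cyc_mLC of BMT replicates 1 and 2 and the BMT + T cells library, against 0.53, 0.21 and 0.35 in Res_mLC. The difference of Cyc_mLC against Res_mLC was 0.96 ± 0.67 (n = 3) and in BMT replicate 1 alone 0.19, whereas Top2a differed by 3.91 ± 0.37 and Mki67 by 3.01 ± 0.33. In BMT replicate 3 the 6 cycling cells held 2.98 CP10K of Cdc20, and all 6 were called G2M in the deposited phase column. A Cdc20 UMI was found in 54.2, 42.2 and 52.9% of Cyc_mLC cells of the 3 larger libraries and in 0 to 0.94% of Hmox1+ monocytes (Hmox1_Mono), a cluster with little of the cycle at median depths of 3751 to 10299.5 UMIs. Ube2c, the E2 enzyme of the same complex, differed by 1.80 ± 0.45 from the other clusters.

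At the centromere and kinetochore, where chromosomes attach to the spindle, Cenpf was at 3.91, 3.96, 4.09 and 5.38 CP10K in Cyc_mLC of BMT replicates 1 to 3 and the BMT + T cells library, against 0.45 to 0.87 in Res_mLC. Cenpe, a kinetochore motor, was at 3.31, 3.22, 2.73 and 3.29 CP10K, against 0.15 to 0.97. The chromosomal passenger members Birc5 (survivin) and Aurkb (its kinase) differed by 3.98 ± 0.50 and 3.65 ± 0.14 from the other clusters. The checkpoint kinase Bub1 differed by 3.43 ± 0.08, and its partner Bub1b by 2.49 ± 0.17. Among 9 members of the spindle and its motors, differences ran from 1.40 for Kif20a, a motor of late mitosis, to 4.45 for Nusap1, which binds spindle microtubules, with 4.31 for the bipolar spindle motor Kif11.

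**Figure D2:**
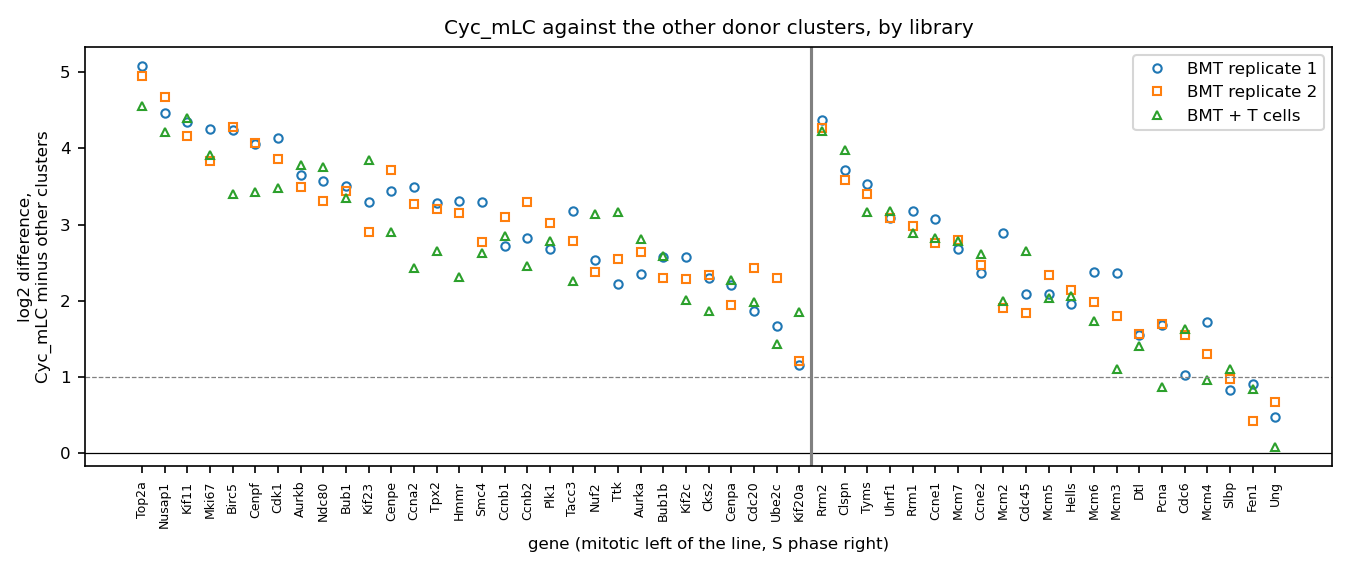
Log2 difference of Cyc_mLC minus the equally weighted mean of the other donor clusters for each of 51 members (horizontal axis, mitotic left of the grey line, S phase right, each in falling order), with 1 symbol per library for BMT replicate 1, BMT replicate 2 and BMT + T cells. All 51 members lie above 0 in all 3 libraries, and the dashed line marks a difference of 1.

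Among the S phase members, the nucleotide synthesis genes differed most. Rrm2, the S phase subunit of ribonucleotide reductase, was at 3.05, 3.25, 2.76 and 4.77 CP10K in Cyc_mLC of BMT replicates 1 to 3 and the BMT + T cells library, and at 0.13, 0.16, 0.14 and 0.09 CP10K in Res_mLC, a separation without overlap. Rrm2 differed from the other clusters by 4.30 ± 0.07, its partner subunit Rrm1 by 3.02 ± 0.15 and thymidylate synthase, Tyms, by 3.37 ± 0.19. Cyclins E1 and E2, which carry cells into S phase, differed by 2.89 ± 0.17 (Ccne1) and 2.48 ± 0.12 (Ccne2).

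The helicase that unwinds origins (Mcm2 to Mcm7), with Cdc6, which loads it, and its cofactor Cdc45, differed by 1.32 to 2.76, with Mcm7 highest (2.76 ± 0.07) and Mcm3 at 1.75 ± 0.63. Mcm7 was at 1.57, 1.93, 1.78 and 2.73 CP10K in Cyc_mLC against 0.46 to 0.57 in Res_mLC. Pcna, the sliding clamp of the replication fork, was the S phase member with the most signal outside the cycling clusters. It was at 4.20, 6.34, 3.59 and 3.06 CP10K in Cyc_mLC of BMT replicates 1 to 3 and the BMT + T cells library, against 0.93, 1.98, 1.38 and 1.09 in Res_mLC. Its difference against the other clusters was 1.41 ± 0.48, the widest spread but for Mcm3 and Mcm2 among the S phase members. A Pcna UMI was found in 41.7 to 76.4% of Hmox1_Mono cells, so a cell with 1 Pcna UMI is not marked as cycling by it. Clspn, which carries the replication checkpoint signal, differed by 3.77 ± 0.20, and the chromatin members Uhrf1, which keeps DNA methylation through replication, and Hells, a remodeller, by 3.12 ± 0.05 and 2.05 ± 0.09.

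Outside Cyc_mLC the next highest level was in Res_mLC for 44 of the 51 members. The 7 others were Cenpa (migratory mLC), Ccne1, Mcm3 and Ung (the MC cluster), Pcna (S100a+ monocytes), Rrm2 (monocytes) and Slbp (Hmox1_Mono). In the deposited phase column, which is a score that reads many of the same genes, 383 of 1651 Res_mLC cells were called S and 164 G2M, against 112 S, 263 G2M and 0 G1 of 375 Cyc_mLC cells. A further 79 cell cycle genes were the wider S phase and G2/M genes, G1 cyclins, CDK inhibitors, and E2F and mitotic factors. Of these, 56 were more than 2-fold higher in Cyc_mLC and 1 was lower, beside 453 and 389 of the 7267 genes over the level filter. The largest differences were Cdca3, a trigger of mitotic entry (3.61), the late spindle motor Kif20b (3.38) and the spindle protein Ckap2l (3.37). The lower gene was Ccnd2, a D-type cyclin of G1 (-1.31), at 0.04 to 0.05 CP10K in Cyc_mLC and 1.24 to 2.63 in migratory mLC of the 3 larger libraries. Its difference of Cyc_mLC against Res_mLC was 0.15 ± 0.33 in these libraries, so the low level was shared with Res_mLC.

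The keratinocyte table has 2 clusters rich in mitotic transcripts, KC_Four with 225 cells in the BMT and 150 in the BMT + T cells library, and KC_Five with 156 and 116. Neither name says cycling, and both are called cycling here for these transcripts only. The study described its last 2 keratinocyte clusters as cycling cells, marked by Mki67, and as putative stem cells with Cdc20. No label says which of these KC_Four and KC_Five are. In KC_Four all 30 mitotic and 18 of 22 S phase members were more than 2-fold higher than in the other keratinocyte clusters, beside 4.71% of the 7650 genes over the filter. In KC_Five this held for 27 of 30 mitotic but only for 2 of 22 S phase members (Rrm1 and Tyms), beside 2.72% of genes. Median differences were 3.14 and 1.67 for mitotic and S phase members in KC_Four, and 2.48 and -0.08 in KC_Five, while the 7650 genes had medians of -0.10 and -0.04. The mitotic members under the fold in KC_Five were Top2a (0.60), Aurkb (0.79) and Ube2c (0.91). Keratinocyte markers summed to 465 to 519 CP10K in these clusters, T cell markers to at most 0.07 and the leukocyte markers Ptprc and Cd74 to 0.38 to 1.70, against 0.32 to 1.81 in basal keratinocytes, so both were keratinocytes by their markers.

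Set against each other, 19 of 22 S phase members and 7 of 30 mitotic members were more than 2-fold higher in KC_Four, beside 2.34% of all genes, and 0 of the 52 were more than 2-fold higher in KC_Five, beside 0.418%. Rrm2 differed most (3.33), at 3.70 and 3.31 CP10K in KC_Four of the BMT and BMT + T cells libraries and 0.42 and 0.15 in KC_Five. Pcna was at 4.81 and 3.95 CP10K in KC_Four and at 0.76 and 0.64 in KC_Five, which is below its level in basal keratinocytes (1.34 and 1.10). All 22 S phase members lay above 0 in this difference. In the deposited phase column 265 of 272 KC_Five cells were called G2M and 7 S, and of 375 KC_Four cells 281 were called G2M and 93 S.

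The 7 mitotic members higher in KC_Four were Top2a, Aurkb, Nusap1, Cdk1, Kif11, Ube2c and Ndc80. Top2a was at 7.24 and 7.81 CP10K in KC_Four of the BMT and BMT + T cells libraries and at 0.65 and 0.85 in KC_Five. Cdk1 was at 8.02 and 7.80 CP10K against 1.19 and 1.15. Aurkb was at 3.69 and 3.62 CP10K against 0.32 and 0.37, and Nusap1 at 5.40 and 5.82 against 0.63 and 0.95. The 2 clusters stood apart for all 4 genes in each library. A Top2a UMI was found in 97.3 and 94.0% of KC_Four cells, 35.9 and 47.4% of KC_Five cells and 6.3 and 4.2% of differentiated keratinocytes.

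At the other end, Cdc20 was at 8.91 and 8.61 CP10K in KC_Five of the BMT and BMT + T cells libraries and at 4.28 and 4.62 in KC_Four. Cenpa, the histone variant that marks the centromere, was at 11.09 and 10.22 CP10K in KC_Five and at 5.46 and 5.48 in KC_Four. Ccnb2 was at 6.18 and 4.93 CP10K in KC_Five and at 3.48 and 3.68 in KC_Four. The differences KC_Four minus KC_Five were -0.96 for Cdc20, -0.95 for Cenpa, -0.61 for Ccnb2, -0.44 for Kif2c, a kinesin that takes microtubules apart, and -0.30 for Cenpe. All 5 had the same sign in both libraries. Mki67 (6.72 and 6.54 against 4.98 and 5.69 CP10K) and Birc5 (9.99 and 10.66 against 8.29 and 8.39) were high in both clusters.

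**Figure D3:**
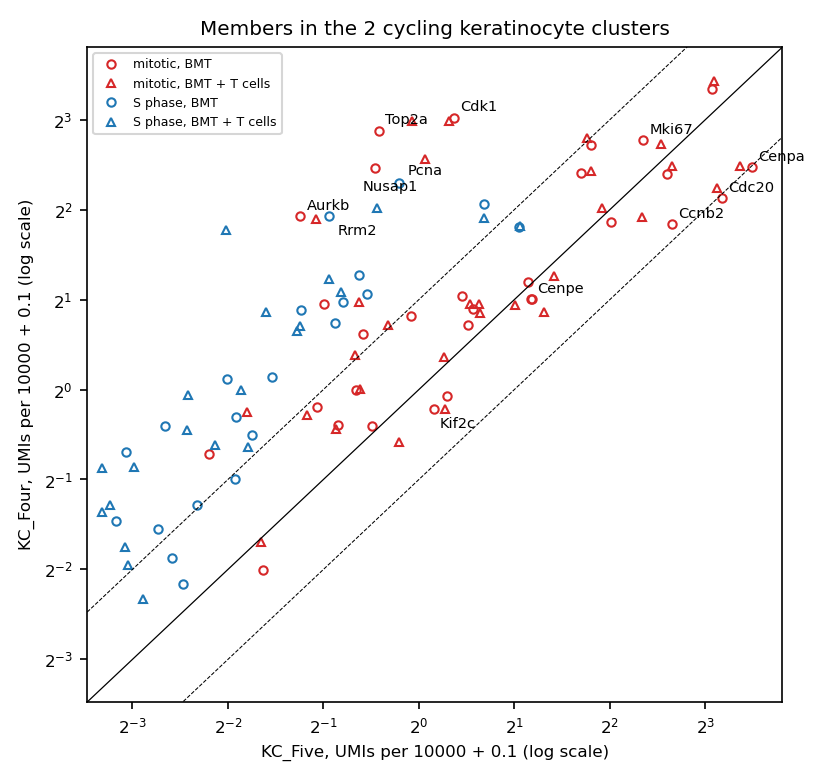
Level of each member in KC_Five (horizontal axis) and KC_Four (vertical axis), as UMIs per 10000 + 0.1 on log scales, with red for mitotic and blue for S phase members, circles for the BMT and triangles for the BMT + T cells keratinocyte library, a solid line for equal levels and dashed lines for 2-fold differences. Top2a, Cdk1, Aurkb, Nusap1 and Rrm2 lie well above the upper dashed line, and Cdc20, Cenpa and Ccnb2 lie below the solid line.

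Among the 79 further genes, 26 were more than 2-fold higher in KC_Four than in KC_Five and 1 was higher in KC_Five, beside 2.34 and 0.418% of all genes. The latter was Myc, a growth factor-responsive transcription factor (-1.09). Against the other keratinocyte clusters Myc differed by -1.41 in KC_Four and -0.32 in KC_Five, so it was not raised in KC_Five. Large differences toward KC_Four were those of Atad2, a replication-linked chromatin ATPase (2.75), and Cdkn2c, a CDK4/6 inhibitor (2.68). Cdkn2c was at 2.46 and 2.24 CP10K in KC_Four and at 0.33 and 0.24 in KC_Five. The inhibitor Cdkn1a (p21) was at 7.69 and 6.5 CP10K in differentiated keratinocytes and at 1.08 to 1.91 in the cycling clusters. In the BMT library basal keratinocytes held 2168 Cdkn1a UMIs in 1684 cells, and KC_Five held 188 in 156. Follicular keratinocytes held 1467 in 278 cells and differentiated ones 4049 in 493. A low level was thus shared with basal keratinocytes.

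The balance of mitotic to S phase transcripts differed between the cycling clusters. Summed over the members listed in all tables, the log2 ratio of mitotic to S phase UMIs was 1.28 ± 0.03 in Cyc_mLC (n = 3 libraries), 1.76 ± 0.09 in KC_Four (n = 2) and 3.33 ± 0.21 in KC_Five (n = 2). Over these libraries, which each hold at least 20 cells of the cluster, the 3 ranges did not overlap. The donor and keratinocyte tables were normalized separately and lack a common test. In Cyc_mLC the sums were 5701 mitotic and 2334 S phase UMIs in BMT replicate 1, 26026 and 10984 in BMT replicate 2 and 5159 and 2091 in the BMT + T cells library. The 6 cells of BMT replicate 3 had a ratio of 2.46, above KC_Four, so with them the Cyc_mLC and KC_Four ranges overlapped. Outside these clusters the ratio was 0.67 ± 0.77 in Res_mLC (n = 4), and in keratinocytes (n = 2 each) 1.24 ± 0.32 in follicular, -0.14 ± 0.07 in basal and -0.90 ± 0.12 in differentiated cells.

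Within the mitotic set the mLC and keratinocyte clusters divided their UMIs differently. Top2a held 13.8% of the mitotic UMIs in Cyc_mLC, 7.62% in KC_Four and 0.99% in KC_Five, as means over libraries. Cdc20 held 1.15, 4.53 and 11.5% in the same order, and Cenpa 3.50, 5.73 and 14.2%. The 7 mitotic members higher in KC_Four than in KC_Five had a median difference of 3.83 in Cyc_mLC against the other donor clusters, the 11 members between 0 and 1 a median of 2.89, and the 12 members below 0 a median of 2.67. Across the 30 mitotic genes, the difference in Cyc_mLC had a Pearson correlation of 0.67 (Spearman 0.61) with that in KC_Four and -0.30 (-0.25) with that in KC_Five. Across the 21 S phase genes the values were 0.94 (0.91) and 0.52 (0.44). These are descriptions across genes, which are not independent replicates and share the libraries of each cluster.

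To count cells without the cluster names, each cell was thinned to 2000 UMIs and scored for at least 3 mitotic UMIs. Thinning left out 182, 770 and 38 cells of BMT replicates 1 to 3, 87 of the BMT + T cells library and 178 host cells, all with under 2000 UMIs. The share was 5.06, 8.68 and 12.2% in BMT replicates 1 to 3 and 15.7% in the BMT + T cells library (95% interval 12.9 to 18.7%). The BMT + T cells library lay above all 3 BMT libraries, by 7.0 percentage points on their mean and 3.43 points on BMT replicate 3. An exact permutation test of 1 library against 3 cannot give a p below 0.25, so none is given. Without thinning the shares were 38.5, 29.1 and 43.8% in BMT replicates 1 to 3 and 52.6% in the BMT + T cells library.

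The order did not hold within Res_mLC. There the thinned share was 17.4, 13.3 and 21.3% in BMT replicates 1 to 3 and 16.4% in the BMT + T cells library, which lay inside the BMT range (-0.98 points on their mean). Res_mLC cells were 44.5% of the BMT + T cells library and 4.08, 14 and 22.6% of BMT replicates 1 to 3. In monocytes (Mono) the share was 1.67, 2.47 and 5.06% in the BMT libraries and 12.3% in the BMT + T cells library, which rests on 7 of 57 cells. Hmox1_Mono, the cluster used as a background here, had 0 of 24, 1 of 108, 0 of 5 and 2 of 96 cells over the limit in BMT replicates 1 to 3 and the BMT + T cells library. With 3 cells taken as the bound for a count of 0, 0 of 24 allows a share of up to 12.5% (3 cells of 24). Cells over the limit outside Cyc_mLC made up 62.8, 57.8 and 73.9% of those in BMT replicates 1 to 3 and 69.7% in the BMT + T cells library.

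**Figure D4:**
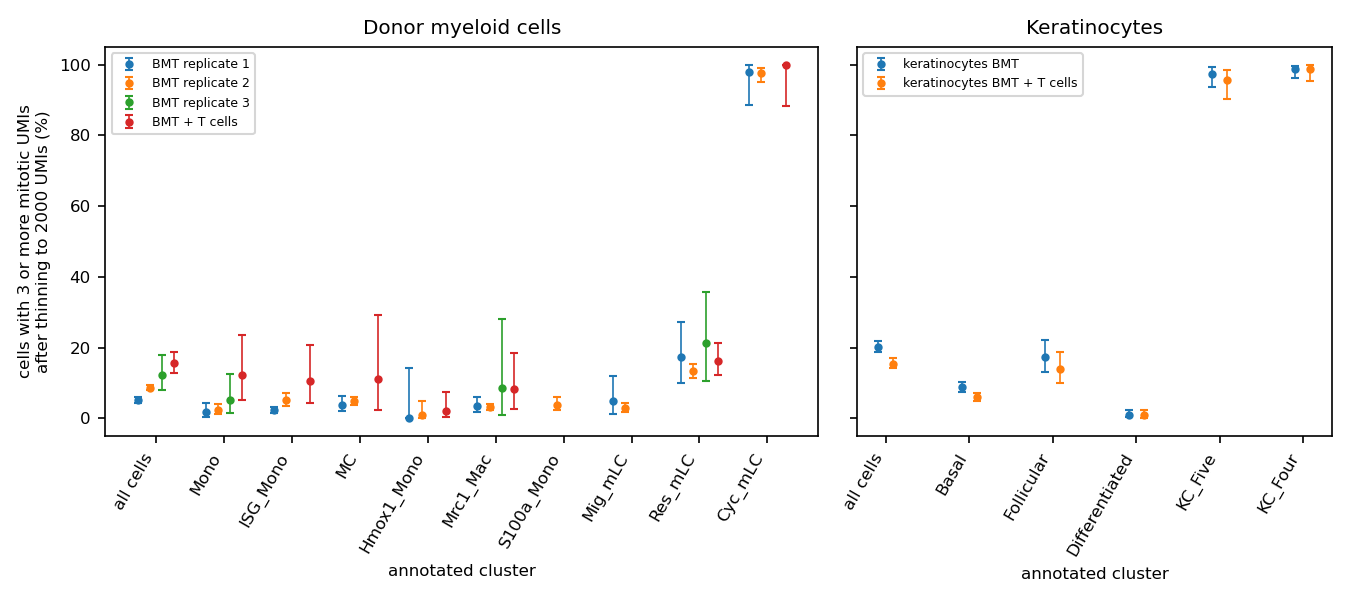
Percent of cells with 3 or more mitotic UMIs after thinning to 2000 UMIs (vertical axis) in all cells and in each annotated cluster (horizontal axis), for 4 donor libraries (left) and 2 keratinocyte libraries (right), with 95% Clopper-Pearson intervals as bars and clusters under 20 cells left out. Cyc_mLC, KC_Four and KC_Five lie between 95.7 and 100%, and Res_mLC is the highest of the other donor clusters in BMT replicates 1 to 3 and the BMT + T cells library.

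In keratinocytes the share was 20.3% (18.8 to 21.8%) in the BMT library and 15.5% (14.1 to 16.9%) in the BMT + T cells library, a difference of -4.83 points between single libraries. It was 8.85 and 6.02% in basal, 17.3 and 13.9% in follicular and 1.01 and 0.85% in differentiated keratinocytes, at median depths of 8053, 8070 and 10113 UMIs in the BMT library. At least 3 S phase UMIs were found in 84.4 and 81.3% of KC_Four cells but in 19.2 and 9.48% of KC_Five cells. In Cyc_mLC of BMT replicates 1 and 2 and the BMT + T cells library the S phase share was 73.9, 76.6 and 83.3%. Of keratinocytes over the mitotic limit, 35.1 and 35.4% lay outside KC_Four and KC_Five.

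Between the labels, donor cells were compared at equal weights over the 3 clusters with at least 20 cells in all 4 libraries (Mono, Mrc1+ macrophages and Res_mLC), so that cluster sizes did not enter. No gene of 7345 was called by limma at an adjusted p under 0.05 and a 2-fold difference, which is 0% of genes, and 316 had an unadjusted p under 0.05. With limma-voom on summed UMIs 0 genes were called and 430 had an unadjusted p under 0.05. Of the members, 17 mitotic and 13 S phase genes passed the level filter and 0 were called. The 5 with an unadjusted p under 0.05 were Rrm2 (0.87), Cenpf (0.87), Cenpa (0.85), Birc5 (0.86) and Smc4 (0.69), each with an adjusted p of 0.982 in limma. Of the 79 further genes 52 passed the filter, 0 were called by limma, and 5 had an unadjusted p under 0.05: Ncapd2 (0.85), a condensin subunit, Cdca3 (0.84), Cdca8 (0.81), a chromosomal passenger protein, the repressor E2f8 (0.76) and Cdkn1a (-0.77).

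Rrm2 was at 0.076, 0.089 and 0.066 CP10K in the 3 BMT libraries and at 0.224 CP10K in the BMT + T cells library. It was under 0.1 CP10K in each BMT library, so it passed the level filter only through the BMT + T cells library. Cenpf was at 0.258, 0.264 and 0.163 CP10K and at 0.495. Both genes were highest in the BMT + T cells library, and the BMT libraries lay close together. The BMT + T cells library was above all 3 BMT libraries for 23 of 30 mitotic and 12 of 21 S phase members, beside 28.2% of the 14682 genes with a UMI. It was below all 3 for 0 mitotic members and 1 S phase member, Slbp, beside 18.4%. Median differences were 0.46 for all 30 mitotic and 0.19 for all 21 S phase members listed, against -0.0011 for the 14682 genes with a UMI. For those over the level filter they were 0.53 and 0.28, against 0.05 for the 7345 genes tested. That filter averages all donor libraries, so the BMT + T cells library had a part in which members passed. Leaving out BMT replicate 3 raised the genes called by limma from 0 to 219, of which 0 were members. The short library names in the labels set BMT replicate 3 beside the BMT + T cells library, which is read here as a shared experiment, though no label says so. Against BMT replicate 3 alone, Rrm2 differed by 0.97, Cenpf by 1.18, Cenpa by 0.61, Birc5 by 0.82 and Smc4 by 0.87. With this experiment as a block in limma, and BMT replicates 1 and 2 taken as another, 3 of the 17 mitotic members tested were called higher, beside 0.871% of genes, and 0 of 13 S phase members. No member was called lower, beside 1.69% of genes. These were Top2a (1.32, adjusted p = 0.00709 in limma), Cenpf (1.18, adjusted p = 0.0167) and Cenpe (1.17, adjusted p = 0.0324). Top2a was at 0.335, 0.382 and 0.163 CP10K in BMT replicates 1 to 3 and 0.558 with the BMT + T cells label, and Cenpe at 0.361, 0.209, 0.104 and 0.359, inside the BMT range. The spread of this fit rests on BMT replicates 1 and 2, so each call compares 1 library with 1 library. The Mrc1+ macrophages of BMT replicate 3 were 45 cells at a median of 2214 UMIs. Those of the BMT + T cells library were 73 cells at 11066 UMIs. The part of this gap in depth was not tested.

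Within Res_mLC alone 0 of 7343 genes (0%) were called by limma, with 33 at an unadjusted p under 0.05, and limma-voom called 0 with 131 at that level. The S phase members leaned the other way here. The BMT + T cells library was below all 3 BMT libraries for 9 of 21 S phase members and above them for 0, beside 12.3 and 22.6% of the 13723 genes with a UMI, and it was above for 10 of 30 mitotic members and below for 1. Median differences were 0.17 for all 30 mitotic and -0.31 for all 21 S phase members listed, against -0.0023 for the 13723 genes with a UMI. For those over the level filter they were 0.17 and -0.35, against 0.03 for the 7343 genes tested. The largest were Uhrf1, at 0.401, 0.382 and 0.365 CP10K in BMT replicates 1 to 3 and 0.179 in the BMT + T cells library, Mcm2, at 0.288, 0.403 and 0.342 against 0.164, and Cenpa, at 0.856, 0.578 and 0.265 against 0.963. Their log2 differences were -0.79 (SE 0.36), -0.74 (SE 0.38) and 0.78 (SE 0.52), and each had an adjusted p of 1.00 in limma. With the experiment as a block limma called 0 genes (0%) here, and 534 had an unadjusted p under 0.05. Uhrf1 and Mcm2 lay under the BMT range and Cenpa above it, and the BMT + T cells side of each comparison is a single library. Against BMT replicate 3 alone the differences were -0.74, -0.74 and 1.54, the mitotic median 0.62 and the S phase median -0.35, while without BMT replicate 3 the mitotic median was -0.0035.

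**Figure D5:**
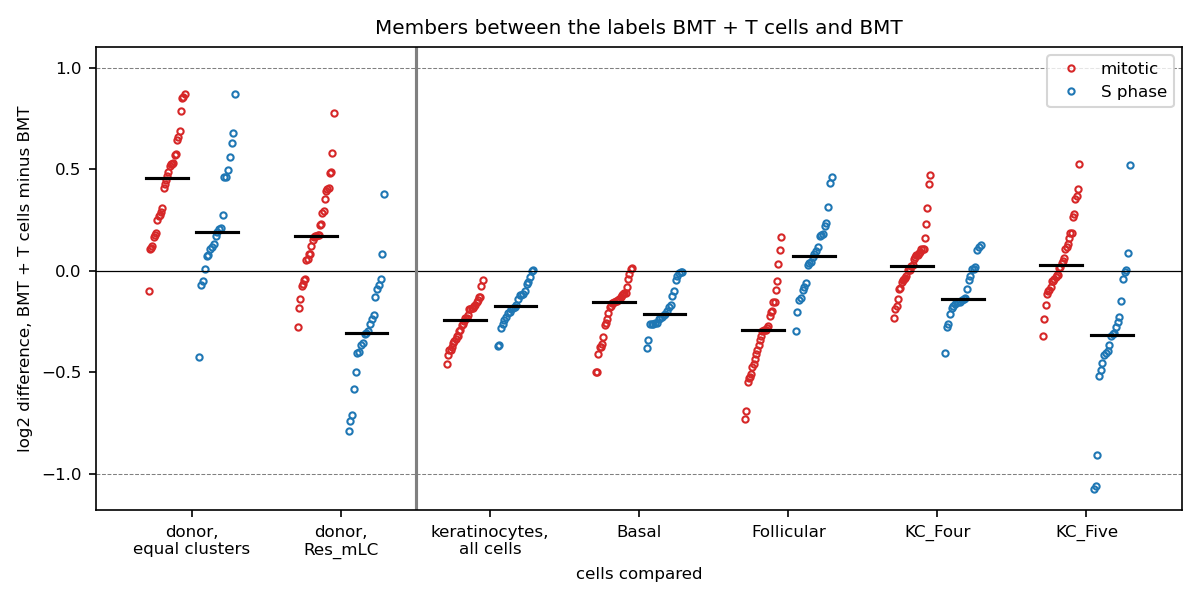
Log2 difference BMT + T cells minus BMT (vertical axis) for each mitotic (red) and S phase (blue) member in donor cells at equal cluster weights, in Res_mLC, in all keratinocytes and in 4 keratinocyte clusters (horizontal axis), with black bars for medians and dashed lines at 1 and -1. Mitotic members lie mostly above 0 in donor cells at equal weights and below 0 over all keratinocytes, and their medians are 0.02 in KC_Four and 0.03 in KC_Five.

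In keratinocytes all 30 mitotic members and 21 of 22 S phase members were lower over all cells of the BMT + T cells library than of the BMT library, but 0 of 52 by more than 2-fold, beside 0.381% of 7615 genes. There is 1 library per label and no replicate check. Median differences were -0.24 for mitotic and -0.17 for S phase members, against 0.0033 for all genes. Ccnb2 was at 0.80 CP10K in the BMT and 0.56 in the BMT + T cells library (-0.46), Cdk1 at 1.02 and 0.74 (-0.41), and Cenpa at 1.41 and 1.05 (-0.39). Mitotic members summed to 23.6 UMIs per 10000 in the BMT library (23.5 to 23.8, exact Poisson interval) and 19.4 (19.2 to 19.6) in the other, and S phase members to 10.2 and 8.53.

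The cycling clusters were also smaller in the BMT + T cells library, and their part in the shift was tested only through the values at equal weights. KC_Four was 7.93% of BMT and 5.79% of BMT + T cells keratinocytes, and KC_Five was 5.5 and 4.48%. Within KC_Four the medians were 0.02 for mitotic and -0.14 for S phase members, with 0 of 52 past 2-fold, beside 0.483% of genes. Within KC_Five they were 0.03 and -0.32, with 2 of 52 past 2-fold, beside 0.539%. These 2 were Rrm2 (-1.08) and Ung (-1.06), the former at 0.42 and 0.15 CP10K. At equal weights over the 5 clusters the mitotic median was 0.011 and the S phase median -0.11. In basal keratinocytes 28 of 30 mitotic and 22 of 22 S phase members were lower in the BMT + T cells library, with medians of -0.16 and -0.21. In follicular keratinocytes 27 of 30 mitotic and 7 of 22 S phase members were lower, with medians of -0.29 and 0.075.

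The host library had no cluster named for cycling, and 61 of 603 thinned cells (10.1%, 7.83 to 12.8%) held at least 3 mitotic UMIs. Host cluster 5, with 43 cells, went against the sorted label: keratinocyte markers summed to 349 CP10K, Langerhans cell markers to 2.83 and the leukocyte markers to 9.01. It had a median depth of 35812 UMIs against 1763.5 to 8084 in the other 6 clusters and held 1831 mitotic UMIs, 41.7% of them in 1 cell. Without this cluster 56 of 560 host cells were over the limit, which is 10.0%. Host clusters 6 and 7 also went against the sorted label and remain in that share. In host cluster 6, with 23 cells, T cell markers summed to 139 CP10K and Langerhans cell markers to 1.04. In host cluster 7 keratinocyte markers summed to 45.6 CP10K and Langerhans cell markers to 2.46, and 14 of 18 cells were over 20% mitochondrial. Host cluster 7 had the highest mean of Mki67, 8.59 CP10K over 18 cells, but its 84 mitotic UMIs include 14 from 1 cell of 328 UMIs. Gins2, a helicase subunit that the donor table does not list, was at 0.48 CP10K in host cluster 5, 0.00 to 0.07 CP10K in the other host clusters and 0.00 to 0.01 CP10K in every keratinocyte cluster.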

How the data were processed

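Single-cell RNA was counted with UMIs (10x Genomics 5' libraries) in donor myeloid cells, keratinocytes and host myeloid cells of mouse epidermis. Per the submitters' processing notes kallisto, bustools and Seurat with GRCm38 were used, with versions not given in the sources used here. Expression was deposited on a natural log (ln) scale, as 1 plus UMIs per 10000 UMIs of the cell before the log. The authors also deposited cell cycle scores and the phase called from each score (Seurat), of which the phase was used, a latent time as a fraction of its range and a percent of mitochondrial UMIs. Undoing the log gave whole UMI counts for 100% of values within 0.001, and the genes listed for donor cells held a median of 91.3% of the UMIs of a cell. The methods of the study state that cells with under 500 genes or over 20% mitochondrial reads and likely doublets were removed, and doublets were not looked for again. Of the cells deposited, 72 donor and 133 host cells had under 500 genes, 181 and 208 were over 20% mitochondrial, and all cells were kept.

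Clusters are the authors' own. CP10K was averaged over the cells of each library and cluster with at least 20 cells. Labels were compared with limma 3.58.1 (R 4.3.3, trend and robust with statmod 1.5.0) on log2(CP10K + 0.1) for genes with a mean of at least 0.1, adjusted over all genes tested, after a test on simulated data. The spread of the single BMT + T cells library was taken to equal that of the 3 others. In the simulated data 18.4% of genes with a true log2 change of 1 in size were called. A gene that was not called may therefore still differ. Donor, keratinocyte and host tables were normalized separately and tested only within a table. Shares have 95% Clopper-Pearson intervals. Counts, shares and plots came from Python 3.11.15 with pandas 2.3.3, NumPy 2.4.6, matplotlib 3.10.9 and SciPy 1.17.1.

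The members and gene lists were chosen with earlier results of these data known. Full values are given for Mki67, Top2a and Cdc20, the 2 members of each role highest in Cyc_mLC, the 5 with the largest and the 5 with the smallest difference between KC_Four and KC_Five, and the 3 that differed most between labels in Res_mLC and in keratinocytes. From the 79 further genes, the 3 with the largest difference in Cyc_mLC are named by rule; Ccnd2, Myc, Atad2, Cdkn2c, Cdkn1a, Ncapd2, Cdca8 and E2f8 were chosen after their values were seen. Alternatives changed the pseudocount, filters, cell sets, cluster weights, thinning, tool and libraries, and the comparison with BMT replicate 3 alone and the block for experiment were added after seeing the data.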

Additional observations from a re-analysis of the deposited data

Results flagged for a closer look

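The share of cells over the mitotic limit was singled out in donor cells and in keratinocytes, because the same contrast of labels went opposite ways in them. The share of cells with at least 3 mitotic UMIs after thinning was 7.0 percentage points higher in the BMT + T cells library than in the mean of the 3 BMT libraries in donor cells. It was above each of them, with an interval that overlapped that of BMT replicate 3. In keratinocytes the same difference was -4.83 percentage points between 1 library and 1 library. The difference between the 2 cell types was not tested. Within Res_mLC the donor difference was -0.98 points, and in keratinocytes the share was lower in the BMT + T cells library in basal, follicular and differentiated cells and in KC_Five, and 98.7% in KC_Four of both libraries.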

How the results depend on the processing

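Of 227 alternative values for 34 results, 171 shifted by less than the spread between libraries or kept their calls, 51 moved further and 5 added calls. Sign was not part of this rule. No called value changed sign, but some medians and share differences near 0 did. Among them was the Res_mLC share difference, from -0.98 points to 0.99 points without BMT replicate 3. The size of every difference depends on the pseudocount. With a pseudocount of 1, 0.01 or the mean of the deposited log values, the mitotic and S phase medians were 1.26, 3.95 and 1.07 and 0.85, 2.70 and 0.72 in Cyc_mLC, 1.36, 3.66 and 1.20 and 0.60, 2.09 and 0.53 in KC_Four, and, for mitotic members, 0.99, 3.20 and 0.82 in KC_Five. The S phase median in KC_Five changed sign, to 0.00046 with the deposited log values and 0.055 without the BMT + T cells library. As a median over members, the mitotic to S phase ratio was 0.66 in Cyc_mLC, 0.97 in KC_Four and 2.30 in KC_Five, and it was 1.18 in Cyc_mLC without Top2a, Pcna and Mki67. Without thinning the share of cells with at least 3 mitotic UMIs differed by 15.4 points in all donor cells and 5.43 points in Res_mLC, where 1000 UMIs per cell gave 1.19 and at least 5 UMIs 0.032. For keratinocytes between labels, pseudocounts of 1 and 0.01 and equal cluster weights gave mitotic medians of -0.088, -0.32 and 0.011 and S phase medians of -0.045, -0.23 and -0.11. For donor cells at equal weights, pseudocounts of 1 and 0.01, limma-voom and pooled cells gave mitotic medians of 0.087, 0.77, 0.97 and 0.69, and 0.01 and limma-voom gave S phase medians of 0.41 and 0.50. In Res_mLC pseudocounts of 1 and 0.01 and limma-voom gave S phase medians of -0.061, -0.49 and -0.61, while limma-voom gave a mitotic median of -0.063 and moved the median of all genes tested to -0.14. Leaving out cells with under 500 genes or over 20% mitochondrial UMIs gave 3 genes called at equal weights.

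Without 1 library at a time, the genes called ranged from 0 to 219 at equal weights and from 0 to 4 in Res_mLC, both highest without BMT replicate 3, and 0 members were called in these fits. Mitotic medians ranged from 2.89 to 3.08 in Cyc_mLC, 2.98 to 3.26 in KC_Four, 2.37 to 2.58 in KC_Five, 0.34 to 0.48 between labels at equal weights and -0.0035 to 0.36 in Res_mLC. S phase medians ranged from 2.06 to 2.18 in Cyc_mLC, 1.58 to 1.75 in KC_Four, -0.27 to 0.055 in KC_Five, 0.10 to 0.23 at equal weights and -0.37 to -0.23 in Res_mLC. The donor share difference ranged from 5.21 to 8.79 points, and from -3.00 to 0.99 points in Res_mLC. The cause of these shifts was not tested. With the experiment read from library names as a block, limma called 188 genes and 3 members at equal weights and 0 in Res_mLC. No paired analysis was possible by replicate number because the donor groups share none and each keratinocyte group has 1 library. A cell thinned to 2000 UMIs keeps few UMIs of a low member, so shares were taken over the summed members only.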
